A study of Mus musculus with 309 samples.

Results

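The 39 Hox genes of the 4 mouse Hox clusters were followed through 309 bulk RNA sequencing libraries from mouse mammary tumours of 24 tumour models. They were all symbols of the deposited gene table that consist of Hox, a cluster letter from a to d and a number, which gave 39 of 55291 symbols. The rule used gene names only. Cluster A holds 11 of them on chromosome 6, cluster B 10 on chromosome 11, cluster C 9 on chromosome 15 and cluster D 9 on chromosome 2.

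Hox genes encode transcription factors that bind DNA through a homeodomain. In the embryo they set position along the head-to-tail axis and the limbs, and their order on the chromosome follows the order of the body regions in which they act, with low numbers towards the head and high numbers towards the tail. Polycomb and Trithorax proteins maintain the silent or active state of Hox genes, and proteins of the Pbx and Meis families bind DNA together with them. In the mammary gland, Hoxa9, Hoxb9 and Hoxd9 are known from mouse genetics to act in the growth of the gland during pregnancy and lactation.

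The tumours were untreated (64 tumours of 18 models) or treated with trametinib, an inhibitor of the kinases MEK1 and MEK2 (65 tumours, 22 models), with erlotinib, an inhibitor of the epidermal growth factor receptor kinase (66 tumours, 22 models), with carboplatin plus paclitaxel, a DNA-damaging and a microtubule-stabilising drug (66 tumours, 22 models), or with antibodies against PD1 and CTLA4, which block 2 checkpoints of T cells (48 tumours, 16 models). Most groups of a model and a treatment had 3 tumours. The models are labelled T11, T12, 4T1 and E0771, T11-APOBEC, KPB25L with KPB25L-UV and KPB25L-APOBEC, KPB1-A and KPB1-B, p53RB-626, p53RB-624 and p53RB-426, MMTV-PyMT, MMTV-Neu, K14-TRT and C3-TAG, and by the numbers 9263, 2336, 2250, 2225, 2224, 2208 and 2153. The labels state the tissue as mammary tumour and give no strain, age, allele, driving promoter, dose or time of treatment, and no word on whether a model is 1 clone or whether tumours share a host. K14-TRT was sampled untreated only and E0771 had 1 untreated tumour, KPB25L-APOBEC is 1 tumour, and 2224, 2225, 2250, 2336, 4T1 and 9263 had no untreated tumour. As the labels do not say how the tumours of a group were separated, p-values measure the spread between these samples only.

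Library totals ran from 12.1 M to 226 M estimated counts (M for mega), with a median of 78.6 M. The median was lowest for erlotinib (34.3 M) and highest for the antibodies (113 M). Levels are given as CPM, counts scaled to the library total, and levels of different genes are compared only per kilobase of exon. At these depths 3 counts correspond to between 0.0137 and 0.268 CPM, which covers counting error only. A member was called on in a model when its median over the tumours of that model reached 1 CPM. Library strandedness is not given in the sources used here, so a Hox gene cannot be separated from a gene that overlaps it on the other strand. This touches Hoxb3 and Hoxb2, which share 52.9% and 27.3% of their exon bases with other genes (Hoxb3os among them), and Hoxa11, with 35% shared with Hoxa11os. Hoxa3, Hoxa7 and Hoxa4 share 27.1%, 20.4% and 16% with other genes, most of them on the opposite strand. Hoxd3 and Hoxd4 share 62.8% and 52.3% of their exon bases with other genes, among them each other, Gm28230 and Hoxd3os1. In bulk tumours, fewer cells of a type and less RNA per cell cannot be told apart.

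Promoters of 4 cluster D members are shown first, because these genes lie within a region of 96.8 kb on the plus strand of chromosome 2 and yet were on in very different numbers of models: Hoxd13 in 1, Hoxd12 in 0, Hoxd10 in 2 and Hoxd8 in 23 of the 24. Each is the 250 bases before the RefSeq start on GRCm38.p6, plus strand, 5′ to 3′, with the dinucleotide CG in capitals. The positions are chr2:74667975-74668224 for Hoxd13, chr2:74674763-74675012 for Hoxd12, chr2:74691641-74691890 for Hoxd10 and chr2:74704365-74704614 for Hoxd8.
Hoxd13: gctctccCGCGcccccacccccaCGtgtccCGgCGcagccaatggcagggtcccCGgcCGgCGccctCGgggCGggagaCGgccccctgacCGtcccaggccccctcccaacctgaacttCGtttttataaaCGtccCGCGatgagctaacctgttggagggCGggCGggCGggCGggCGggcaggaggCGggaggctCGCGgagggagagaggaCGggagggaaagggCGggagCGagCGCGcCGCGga
Hoxd12: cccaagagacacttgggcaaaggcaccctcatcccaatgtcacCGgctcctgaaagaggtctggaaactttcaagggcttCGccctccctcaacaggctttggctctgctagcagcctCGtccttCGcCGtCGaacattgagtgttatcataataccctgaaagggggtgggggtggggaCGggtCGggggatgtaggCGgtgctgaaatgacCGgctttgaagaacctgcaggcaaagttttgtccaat
Hoxd10: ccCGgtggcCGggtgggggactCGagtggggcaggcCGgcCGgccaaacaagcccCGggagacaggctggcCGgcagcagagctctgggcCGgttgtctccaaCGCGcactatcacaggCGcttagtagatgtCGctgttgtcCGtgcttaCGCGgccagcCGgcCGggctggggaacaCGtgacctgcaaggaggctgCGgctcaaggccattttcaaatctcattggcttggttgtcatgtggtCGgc
Hoxd8: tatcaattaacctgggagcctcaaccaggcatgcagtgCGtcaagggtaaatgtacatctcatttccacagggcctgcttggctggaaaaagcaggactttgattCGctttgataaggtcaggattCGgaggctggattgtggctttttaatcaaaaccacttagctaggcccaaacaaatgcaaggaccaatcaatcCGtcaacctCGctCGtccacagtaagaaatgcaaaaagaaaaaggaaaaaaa
The Hoxd13 promoter holds 31 CG dinucleotides, a number that 5.19% of all promoters of this length reach. Hoxd10 holds 20 (reached by 18%), Hoxd12 10 (37.8%) and Hoxd8 6 (50.4%). Of the 4, the member on in most models had the fewest CG and the member on in 1 model the most, but Hoxd12, on in 0, had 10. Other members did not all follow this order: Hoxa5, with 28 CG, was on in 18 models, and Hoxb1, with 7, in 0. A relation of CG number to level was not tested. Over the 24 promoters found for 22 of the 39 members, the median was 12.5 CG (2 to 35), against 6 over 32841 promoters of 27018 genes. The letters TATAAA, searched on both strands, were in 4 of the 24 (16.7%, against 12.4% of all promoters), the Hoxd13 promoter among them. TGATTNAT, the letters of a joint Pbx and Hox motif, were in 2 of the 24 (8.33%, against 2.83%). Both searches describe letters in these windows, not binding.

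Of the 39 members, 34 were on in at least 1 model. Hoxb1, Hoxc11, Hoxc12, Hoxd1 and Hoxd12 were on in none, and the highest model median of Hoxd12 was 0.0414 CPM, in E0771. Hoxb3 and Hoxd8 were on in 23 of the 24 models, Hoxb2 and Hoxc6 in 22, Hoxb4 in 21, and Hoxa3 and Hoxa7 in 20. At the other end, Hoxa13 was on in 5 models, Hoxa11, Hoxc13 and Hoxd3 in 4, Hoxd10 and Hoxd11 in 2, and Hoxd13 in 1. Per kilobase of exon, the highest medians over the models were those of Hoxa7 (2.3 CPM per kb), Hoxa5 (2.24), Hoxd8 (1.6), Hoxc6 (1.26) and Hoxb7 (0.866). Of the 936 combinations of a member and a model, 447 were on. That number was 584 with a limit of 0.5 CPM and 320 with a limit of 2 CPM. In the 18 models with untreated tumours, 321 of 702 combinations were on both over all tumours and over untreated tumours alone, 17 only over all tumours and 13 only over untreated ones.

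**Figure D1:**
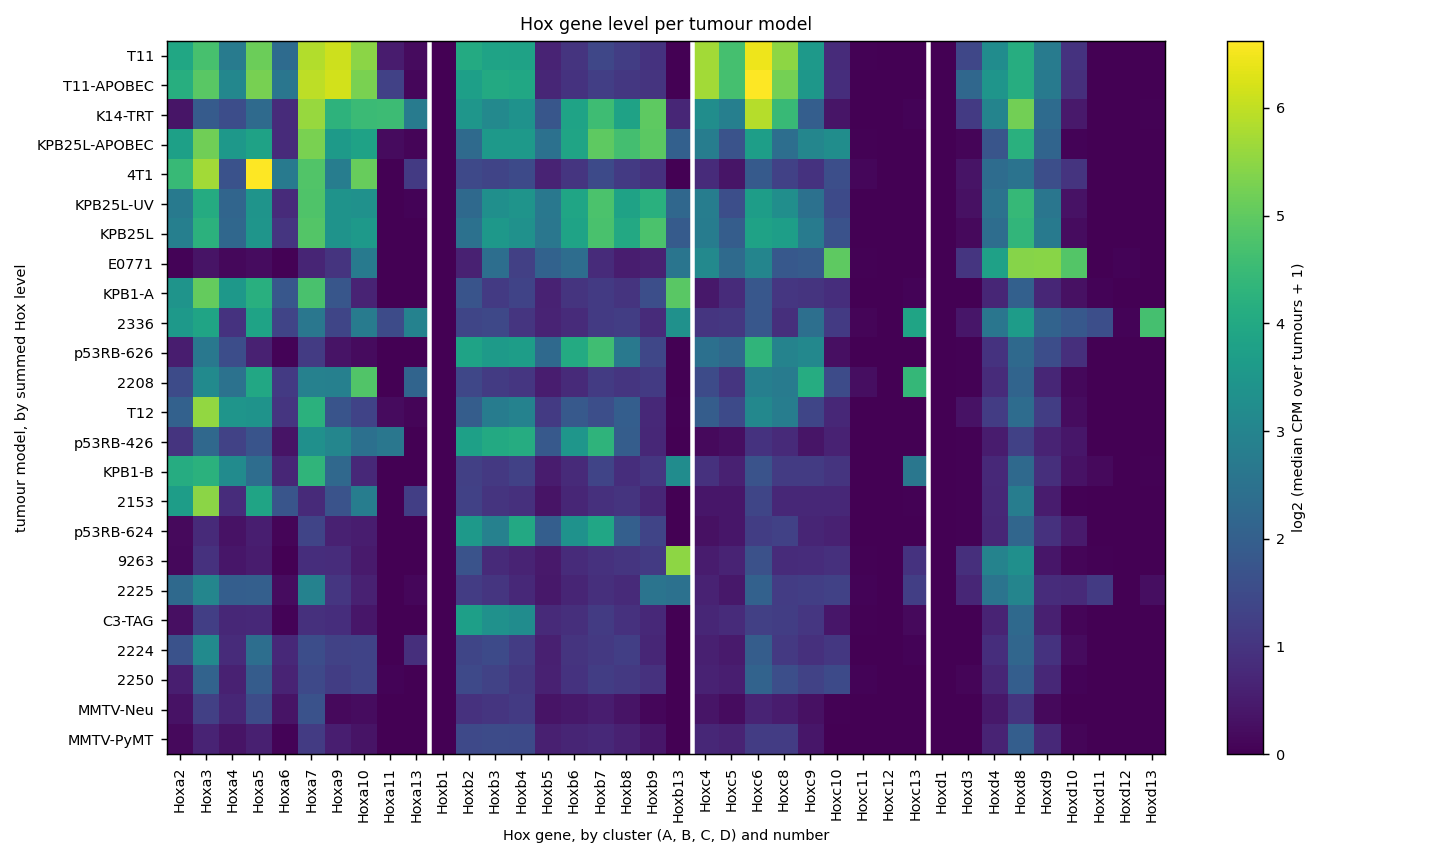
Level of the Hox genes described here (columns, in order of number within clusters A to D) in the 24 tumour models (lines of the map, ordered by the summed Hox level), as log2 of the median CPM plus 1 over all tumours of a model. Yellow cells are high and dark blue cells low, and blocks of neighbouring genes are bright together within a model.

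The summed level of all members differed widely between models. T11 had a median sum of 205 CPM per kb (lowest tumour 164, highest 313) and T11-APOBEC 201 (151 to 281). MMTV-PyMT had 8.5 (4.39 to 12.1) and MMTV-Neu 9.6 (2.25 to 40.8), so that the highest tumour of either lay below every T11 tumour. K14-TRT (median 157), 4T1 (118), KPB25L-UV (116), KPB25L (109) and the lone KPB25L-APOBEC tumour (136) also summed to above 100 CPM per kb. E0771 (94.1), KPB1-A (70), 2336 (67.5), p53RB-626 (63.3), 2208 (62.1) and T12 (53.6) came next, and the ranges of these neighbours in the order overlapped. T12 spanned from 26.5 to 139, and C3-TAG from 6 to 68. Epithelial markers, which define the cells of a mammary carcinoma, were low in 3 of the models with high Hox sums: their summed level was 45.2 CPM in T11 (20.2 to 88.4), 26 in T11-APOBEC (11.8 to 33.3) and 136 in K14-TRT (68.3 to 190), against 4500 in MMTV-PyMT (2790 to 6090). The level did not follow the order throughout, with 2180 CPM in 4T1 and 2300 in KPB25L, and 293 in p53RB-624, whose Hox sum was 35.1 CPM per kb. Summed fibroblast markers were 13000 CPM in T11 (8550 to 35900) 3770 in MMTV-PyMT (844 to 8030) and 12800 in p53RB-624. The part of these cell types in the Hox levels was not tested.

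The cluster that carried most of the sum also differed. Cluster A had the highest sum in 13 models, cluster B in 10, cluster D in 1 (E0771) and cluster C in 0. In 4T1, cluster A summed to 104 CPM per kb (90.3 to 125) while clusters B, C and D had 4.36, 3.43 and 4.68, and Hoxa5 alone gave 52 CPM per kb. In E0771, cluster D summed to 55.1 CPM per kb (44.4 to 65.1) and cluster C to 25.2, while cluster A had 2.53 with Hoxa10 as the 1 member on. These 2 models thus stood at opposite ends: 10 of 11 cluster A members were on in 4T1 and 1 of 11 in E0771. T11 had high sums in both cluster A (88.7, 62.2 to 116) and cluster C (85.8, 69.8 to 166). The 3 KPB25L models and the 3 p53RB models had their highest sums in cluster B, from 27.4 in p53RB-624 to 58.6 in KPB25L-APOBEC, except that no spread can be given for KPB25L-APOBEC.

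**Figure D2:**
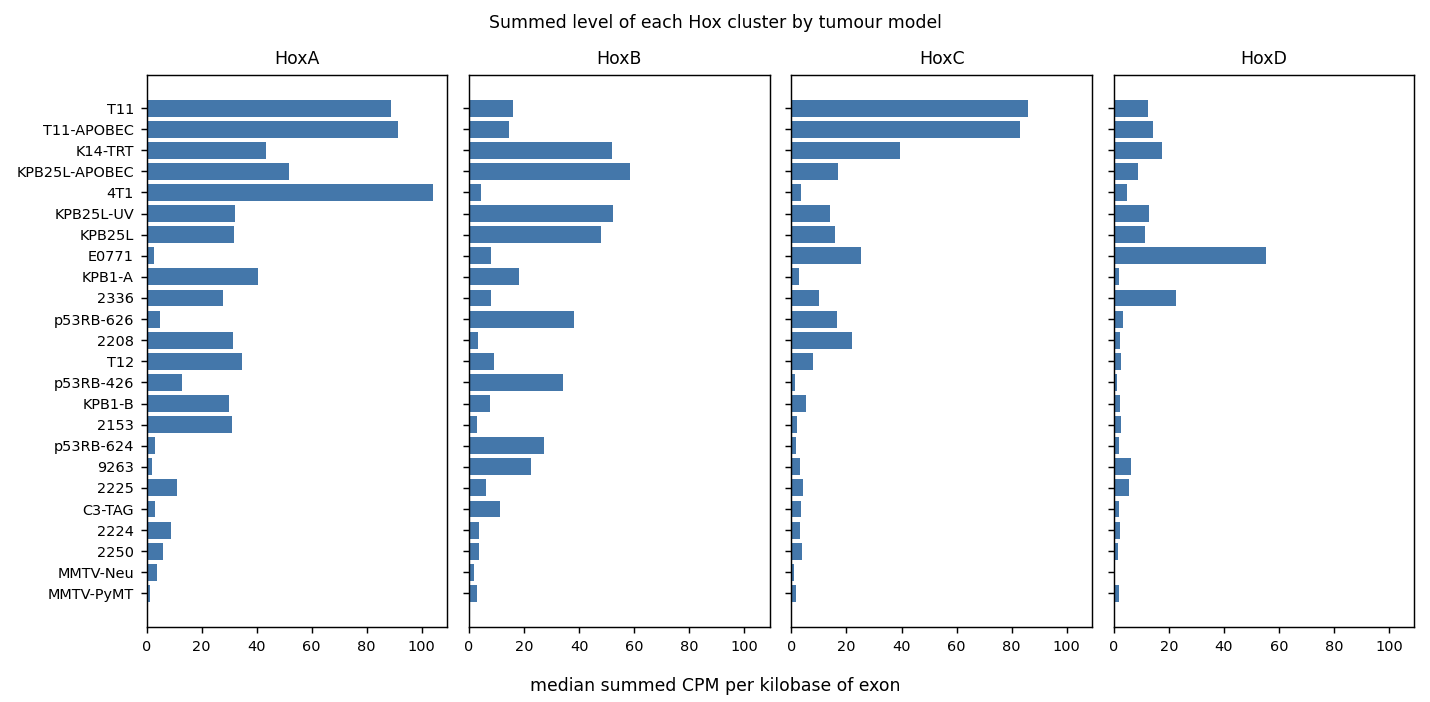
Summed level of each Hox cluster (panels A to D) in the 24 models, as the median over tumours of the summed CPM per kb of exon. Bars start at 0; cluster A is highest in 4T1 (104), cluster B in KPB25L-APOBEC (58.6), cluster C in T11 (85.8) and cluster D in E0771 (55.1).

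Members on in a model often lay next to each other. Where more than 1 member of a cluster was on in a model (77 of the 96 combinations of a cluster and a model), the members on formed an unbroken run in 41: 5 of 20 in cluster A, 11 of 24 in cluster B, 14 of 20 in cluster C and 11 of 13 in cluster D. In cluster C the run from Hoxc4 to Hoxc9 was on in T11, T11-APOBEC, T12, K14-TRT and p53RB-626, and it went on to Hoxc10 in E0771 and the KPB25L models. As a description across the 24 models, with the same libraries behind every value, neighbours within a cluster had a median Pearson r of 0.84 over 30 pairs (0.097 to 0.97). Neighbours were taken among the 34 members on in at least 1 model. Hoxc10 and Hoxc13, and Hoxd11 and Hoxd13, were thus paired although members that were off lie between them. Other pairs of 1 cluster had 0.52 (103 pairs), pairs with the same number in different clusters 0.39 (36 pairs) and all other pairs 0.21 (392 pairs). The lowest values among neighbours fell at the high-numbered ends, with 0.097 for Hoxc10 and Hoxc13, 0.3 for Hoxd10 and Hoxd11, and 0.41 for Hoxb9 and Hoxb13. Not all pairs at these ends were low, as Hoxd11 and Hoxd13 had 0.85. Hoxd3 and Hoxd4, which share exon bases with each other, had 0.9.

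In cluster A the widest ranges over models were those of Hoxa5, Hoxa9 and Hoxa11. Hoxa5, whose product regulates the p53 gene, had a median of 97.6 CPM in 4T1 (86.1 to 131), 37.3 in T11-APOBEC (32.2 to 48.2), 34.2 in T11 (25.4 to 46) and 0.16 in E0771 (0.0317 to 0.509). The 4T1 tumours lay above all tumours of the other 3, and T11 and T11-APOBEC overlapped. Hoxa9, a factor best known from acute myeloid leukaemia, had 70.6 CPM in T11-APOBEC (48.4 to 94.5) and 67.9 in T11 (45 to 96.3), above K14-TRT with 18.4 (15.8 to 32.1). In MMTV-Neu it had 0.123 CPM (0 to 2.21). Hoxa11, which acts in the limb and uterus, was on in 4 models: K14-TRT had 22.2 CPM (18.4 to 27.1), p53RB-426 5.19 (2.61 to 7.16) and 2336 1.85 (0.115 to 3.83), and T11-APOBEC 1.43 (0.668 to 2.35). In p53RB-626 it was at 0 counts in 15 of 18 tumours.

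In cluster B the widest ranges were those of Hoxb13, Hoxb9 and Hoxb8. Hoxb13, a posterior gene known from prostate and tail, was on in 9 models and lies apart from the other cluster B members. Its median was 44.1 CPM in 9263 (30.1 to 65.8), 29.2 in KPB1-A (8.93 to 39.2), 9.13 in 2336 (0.0165 to 10.8) and 8.32 in KPB1-B (1.87 to 19.4). In 9263 it was the leading Hox gene, at 20 CPM per kb where the whole of cluster B summed to 22.7. Hoxb9 had 30.4 CPM in K14-TRT (25.6 to 40.2), 30.2 in the KPB25L-APOBEC tumour, 25.9 in KPB25L (11.6 to 37.9) and 17.6 in KPB25L-UV (13.3 to 57.8), with ranges that overlapped. Hoxb8 was highest in the same KPB25L family, with 24.2 CPM in KPB25L-APOBEC, 14.9 in KPB25L (10.4 to 16.8) and 13.2 in KPB25L-UV (7.66 to 19.7).

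In cluster C the widest ranges were those of Hoxc10, Hoxc4 and Hoxc13. Hoxc10 had 30.5 CPM in E0771 (17.5 to 53.8), above the 8.44 of KPB25L-APOBEC and the 2.18 of KPB25L (0.202 to 7.48). Hoxc4 had 51.4 CPM in both T11 (40.8 to 74.7) and T11-APOBEC (32.5 to 72.7), above K14-TRT with 8.42 (6.95 to 11.7). Hoxc6, the most abundant member of cluster C per kilobase over the models, had 96.6 CPM in T11-APOBEC (48.9 to 144), 86.8 in T11 (68.1 to 204) and 58 in K14-TRT (41.7 to 73.2), with overlap. Hoxc13, a regulator of hair keratin genes, was on in 4 other models: 2208 had 20.2 CPM (16.6 to 28.3), 2336 13.5 (0.379 to 19.4), KPB1-B 5.15 (0 to 9.96) and 2225 1.35 (0.172 to 4.67).

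In cluster D the widest ranges were those of Hoxd10, Hoxd13 and Hoxd9. Hoxd10 was on in E0771 (28.1 CPM, 20.6 to 35.2) and in 2336 (2.56, 1.98 to 3.87), with no overlap. Hoxd13, which shapes digits and the genital tract, had 24.5 CPM in 2336 (14 to 43.4), and the next model, 2225, had 0.188. Its neighbour Hoxd12, whose promoter is printed above, stayed off in 2336, and Hoxd11 had 1.99 CPM there. Hoxd9 had 42.5 CPM in E0771 (33.5 to 52.6) and 5.7 in T11 (3.83 to 7.63). Hoxd8 had 42 CPM in E0771 (34.4 to 52.8) and 35.9 in K14-TRT (27.3 to 51.4), and was off in MMTV-Neu with a median of 0.991 CPM.

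The share of the variance of log2 CPM that falls to the model, the treatment, their combination and the tumours within a group was computed over the 221 tumours of the 15 models with at least 2 tumours in the untreated, trametinib, erlotinib and carboplatin plus paclitaxel arms. Over the 39 members the median share was 81.9% for the model, 0.983% for the treatment, 7.16% for the combination and 11% within groups. Over all 25181 genes that passed the filter on low counts it was 63.4%, 2.11%, 15.4% and 16.5%. Over the 34 members that passed this filter it was 83.6%, 0.803%, 6.54% and 8.8%. A model share above 80% was found for 22 of the 39 members (56.4%), or 64.7% of the 34, and for 19.6% of all genes that passed. A treatment share above 5% was found for 0 of 39 members and for 4467 genes (17.7%). Hoxb13 had the highest model share of all members, 98.8%, and Hoxa2, a hindbrain gene, had 92.4%. The 15 models leave out 2336, where Hoxb13 had a median of 0.0864 CPM with carboplatin plus paclitaxel and 10.1 with trametinib. Hoxd10 had 46.4%, with 4.45% for the treatment, and Hoxc10 had 54.2%. These shares are descriptions of these tumours and carry no test.

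The profile of the 39 members placed most tumours with their own model. For 273 of 309 tumours (88.3%), the tumour with the highest Pearson r over the 39 members was of the same model. Over 28928 genes this number was 293 (94.8%). Tumours whose nearest was of another model included those of C3-TAG, MMTV-Neu, MMTV-PyMT and 2224. The nearest tumour may be of the same treatment arm, so these counts do not show whether a profile holds across arms. For 2336, 9 of 9 tumours had their nearest in 2336. Its carboplatin plus paclitaxel tumours nevertheless had r of 0.641 to 0.766 with the other 2336 tumours, and up to 0.82 with a tumour of 2224.

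In the comparisons with treatment, each treated arm was set against untreated tumours of the same models with the model as a factor. The 4 comparisons share the untreated tumours, so their values are given side by side and not counted together. Calls are those with an adjusted p under 0.05 in edgeR's quasi-likelihood test with Benjamini-Hochberg adjustment over all genes tested. Members on in a model mostly stayed on: of 282 combinations of a member and a model that were on in untreated tumours of 16 models, 262 were on with trametinib, 250 with erlotinib and 263 with carboplatin plus paclitaxel. With the antibodies 155 of 178 stayed on in 12 models. Combinations that were off untreated and on in the treated arm numbered 37, 40, 38 and 24 in the same order. Of the combinations with at least 5 CPM untreated, the treated median was within 2-fold for 138 of 151 (91.4%) with trametinib, 137 of 151 (90.7%) with erlotinib, 139 of 151 (92.1%) with carboplatin plus paclitaxel and 65 of 78 (83.3%) with the antibodies. Members that rose from a lower untreated level do not enter this count, as Hoxc8 in 2153 (0.825 CPM untreated, 5.05 with trametinib). The same shares over all genes were not computed, so these counts do not set the members apart from other genes.

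With trametinib (48 tumours against 54 untreated, 16 models), genes of clusters C and D were higher: Hoxc4, Hoxc5, Hoxc6, Hoxc8, Hoxd8, Hoxd9 and Hoxd10. These were 7 of the 28 members tested (25%), and 0 were lower, while 36.9% of all genes were called and 17.4% were called higher. The median log2 fold change was 0.14 over the members and -0.0096 over all genes. Hoxc4 had 2.16 CPM (0.171 to 74.7) against 1.46 (0.0791 to 56), was higher in 13 of 16 models and differed by 0.57 on the log2 scale (SE 0.14, adjusted p = 0.000746). Hoxc8 had 3.77 CPM (0.139 to 95.7) against 2.04 (0.206 to 50.3), higher in 12 models (0.61, SE 0.16, adjusted p = 0.00111), and Hoxc5 had 1.47 CPM (0.138 to 46.8) against 0.887 (0.0474 to 32.6), higher in 11 (0.56, SE 0.14, adjusted p = 0.00113). Hoxc6 had 6.58 CPM (0.528 to 204) against 3.51 (0.332 to 112), higher in 11 models (0.41, SE 0.13, adjusted p = 0.00987). The treated and untreated ranges overlapped for every called member. Of cluster D, Hoxd10 rose by 0.73 (SE 0.26, adjusted p = 0.0216) and Hoxd9 by 0.40 (SE 0.15, adjusted p = 0.0285), each in 11 models. Hoxd8 had 4.52 CPM (0.837 to 42) against 3.59 (0.364 to 49.3), higher in 10 models (0.31, SE 0.12, adjusted p = 0.0299). The most abundant members of clusters A and B did not pass: Hoxa7 had 0.14 (SE 0.14, adjusted p = 0.443) and Hoxb7 0.07 (SE 0.10, adjusted p = 0.638).

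Fibroblast markers moved with these members: 9 of 10 were higher with trametinib, with summed levels of 9440 CPM (1600 to 69800) against 7360 (377 to 37700). All 8 endothelial markers were lower (146 CPM, 46.2 to 446, against 253, 75.9 to 648), 3 of 8 macrophage and 2 of 10 epithelial markers were lower, and 5 of 9 T and NK cell, 3 of 7 basal and 3 of 7 adipocyte markers were higher. Their part in the result was not tested. In the 8 models whose arms had mean library numbers within 100 of each other, 0 members were called with trametinib (23.6% of all genes), and Hoxd8 had a log2 fold change of -0.04 (adjusted p = 0.806). Low library numbers of some untreated tumours kept T11 and KPB1-B out of this set. T12 was in it, and there the medians of Hoxc4, Hoxc6 and Hoxc8 were lower with trametinib, with overlap. With 1 difference per model in limma 0 were called (8.65% of all genes), against 7 in the test over tumours.

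With erlotinib (48 against 54, 16 models), 1 of the 27 members tested was called, Hoxd8, where 5.74% of all genes were called and 2.37% were called higher. Hoxd8 had 5.78 CPM (0.856 to 43.9) against 3.59 (0.364 to 49.3), higher in 9 of 16 models (0.49, SE 0.16, adjusted p = 0.0435). Hoxa7 (-0.05, SE 0.14, adjusted p = 0.874), Hoxb7 (0.16, SE 0.13, adjusted p = 0.509) and Hoxc6 (0.13, SE 0.19, adjusted p = 0.739) did not pass. Of the fibroblast markers 0 of 10 were called. In the 8 models with adjacent library numbers Hoxd8 had -0.02 (adjusted p = 0.983), and 0 members and 0.133% of all genes were called.

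With carboplatin plus paclitaxel (48 against 54, 16 models), Hoxd8, Hoxd9, Hoxd10 and Hoxb5 were higher and Hoxa3 and Hoxa4 lower. These 6 were 21.4% of the 28 members tested, against 24.2% of all genes, and the median log2 fold change was 0.17 over the members and 0.0098 over all genes. Hoxd10 had 0.283 CPM (0 to 29.9) against 0.136 (0 to 31.7), higher in 14 of 16 models (1.14, SE 0.28, adjusted p = 0.00156). Hoxd8 had 5.64 CPM (0.511 to 46.9) against 3.59 (0.364 to 49.3), higher in 11 models (0.45, SE 0.13, adjusted p = 0.00602), and Hoxd9 had 1.65 CPM (0.062 to 52.6) against 0.946 (0.011 to 46.2), higher in 12 (0.66, SE 0.20, adjusted p = 0.0122). The 3 neighbours of cluster D thus moved the same way, at levels that are low in most models. Hoxb5 had 1.2 CPM (0.217 to 9.62) against 0.573 (0.203 to 6.62), higher in 12 models (0.37, SE 0.13, adjusted p = 0.0268). Hoxa4 had 3 CPM (0.0229 to 11.3) against 3.18 (0.072 to 19) and Hoxa3 8.01 (0.16 to 48.8) against 14.3 (0.276 to 67.1). Each was lower in 14 of 16 models, with log2 fold changes of -0.42 (SE 0.15, adjusted p = 0.0362) and -0.36 (SE 0.14, adjusted p = 0.0472). Hoxa7 (0.06, adjusted p = 0.787), Hoxb7 (0.26, adjusted p = 0.103) and Hoxc6 (0.14, adjusted p = 0.501) did not pass. Of the fibroblast markers 3 of 10 were higher, of the T and NK cell markers 7 of 9, and of the endothelial and macrophage markers 5 of 8 each. Their part was not tested. In the 5 models with adjacent library numbers 0 members and 0% of all genes were called, and with 1 difference per model again 0 members and 0% of all genes.

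With the antibodies (36 against 41, 12 models), 4 cluster A members were lower and 0 members higher: Hoxa4, Hoxa5, Hoxa6 and Hoxa7. They were 14.8% of the 27 members tested, against 10.8% of all genes and 4.8% called lower, and the median log2 fold change was -0.24 over the members and 0.002 over all genes. Hoxa6 had 0.204 CPM (0 to 2.81) against 0.364 (0 to 4.01), lower in 10 of 12 models (-0.71, SE 0.17, adjusted p = 0.00479). Hoxa7 had 1.56 CPM (0.48 to 40.5) against 2.67 (0.251 to 57), lower in 11 models (-0.59, SE 0.16, adjusted p = 0.0116). Hoxa4 (-0.61, SE 0.18, adjusted p = 0.0214) was lower in 9 models and Hoxa5 (-0.51, SE 0.17, adjusted p = 0.0356) in 8. These 4 genes adjoin each other in cluster A. Hoxb7 (0.27, adjusted p = 0.313), Hoxc6 (-0.43, adjusted p = 0.093) and Hoxd8 (0.02, adjusted p = 0.954) did not pass. The result rested in part on T12: without its tumours, an alternative chosen after seeing the data, 1 member was called, Hoxa6 (adjusted p = 0.0298), and 5.36% of all genes. In the 2 models with adjacent library numbers 0 members were called (0% of all genes), and 0 with the library number range as a factor (0.914%). All 10 skeletal muscle markers were lower with the antibodies (summed 20.9 CPM, 2.32 to 729, against 157, 4.42 to 4230), and 0 of 10 fibroblast markers were called. Their part was not tested.

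Trametinib and erlotinib were also compared directly, over 65 and 66 tumours of 22 models. Hoxc8 and Hoxc9 were higher with trametinib, 7.14% of the 28 members tested, against 25.4% of all genes and 12.9% called higher. Hoxc8 had 2.46 CPM (0.139 to 95.7) against 2 (0 to 45.8), higher in 17 of 22 models (0.50, SE 0.18, adjusted p = 0.0265), and Hoxc9 had 1.83 (0.0595 to 23) against 1.48 (0.0184 to 25), higher in 15 (0.36, SE 0.14, adjusted p = 0.0408). Hoxc6 (0.31, adjusted p = 0.105), Hoxa7 (0.11, adjusted p = 0.558), Hoxb7 (-0.18, adjusted p = 0.293) and Hoxd8 (-0.11, adjusted p = 0.475) did not pass. Of the fibroblast markers 8 of 10 were higher with trametinib, 8 of 8 endothelial and 5 of 8 macrophage markers were lower, and their part was not tested. Without T12, 1 member was called (22.5% of all genes), and leaving out any replicate number left 0 (10.1% to 17.5%).

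**Figure D3:**
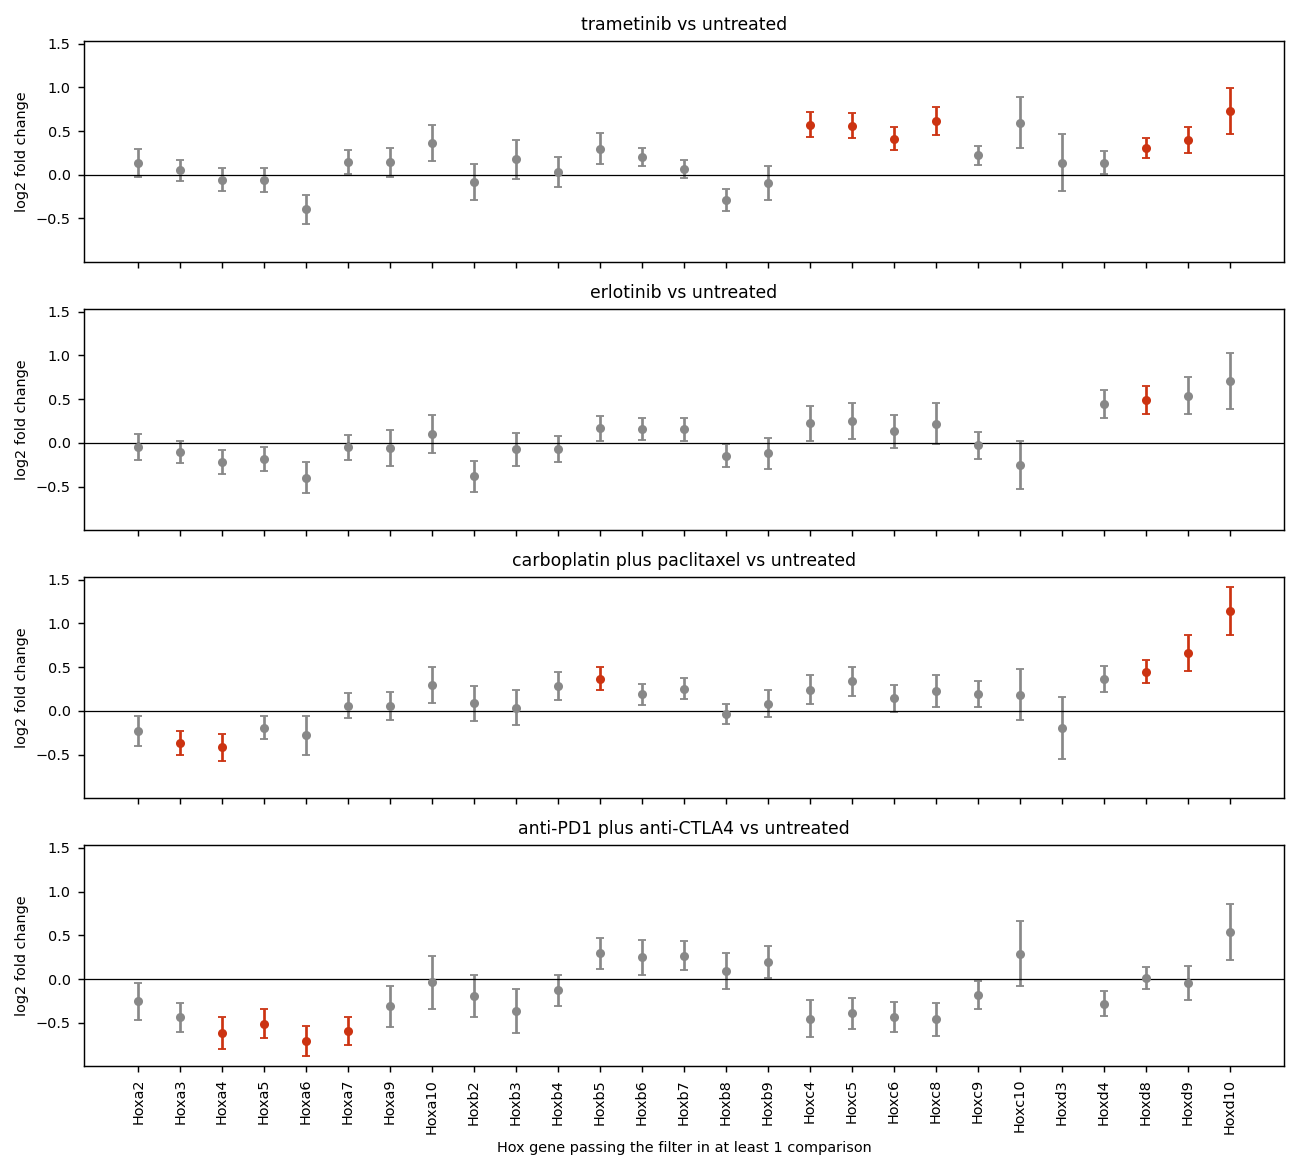
Log2 fold change against untreated tumours of the same models (vertical axis) with its standard error, for Hox genes described here (horizontal axis) that passed the filter in at least 1 of the 4 comparisons (panels). Red points are called, with 7, 1, 6 and 4 in the order trametinib, erlotinib, carboplatin plus paclitaxel and antibodies; grey points are not.

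The responses differed between models for many members, by edgeR's test of the model and treatment combination. This was called for 21 of 28 members with trametinib (79% of all genes), 16 of 27 with erlotinib (73.9%), 12 of 28 with carboplatin plus paclitaxel (65.7%) and 16 of 27 with the antibodies (50%). The members' shares, 75%, 59.3%, 42.9% and 59.3%, were therefore below the background except with the antibodies. The smallest adjusted p-values were those of Hoxd8 (7.27e-10) and Hoxc4 (3.02e-09) with erlotinib. T12, 2153, p53RB-426 and 2336 were then examined separately, and were chosen after their values were seen. Fits within single models were run wherever both arms held at least 2 tumours, and many called 0 members. Erlotinib in 2208, not described further, went with 8 members higher and 7 lower of 29 tested (51.7%, against 45% of all genes). Trametinib in T11-APOBEC went with 8 higher and 3 lower of 29 (37.9%, against 37.4%). The model p53RB-426 stood out by its number of members called and is not among the models listed next. Of the 225 combinations in which a member reached a median of 5 CPM in some arm of a model, 25 had a difference of 5-fold or more between the highest and the lowest arm: 9 in T12, 5 in 2336, 3 in 2153, 2 each in C3-TAG and MMTV-Neu, and 1 each in 2224, 4T1, KPB25L and KPB25L-UV.

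In T12, genes of clusters A and C differed most between arms. Hoxc4 had 10.4, 14.7 and 22.5 CPM in the 3 untreated tumours, 16.1, 27.8 and 32.6 with carboplatin plus paclitaxel, 1.45, 2.89 and 11.1 with trametinib, 1.63, 2 and 2.6 with erlotinib, and 0.582, 0.698 and 0.845 with the antibodies. The untreated tumours thus overlapped with the chemotherapy and trametinib tumours and lay above all erlotinib and antibody tumours. Hoxa9 followed the same order, with 8.66, 15.6 and 30.8 CPM untreated, 1.82, 1.91 and 2.24 with erlotinib and 0.643, 1.13 and 1.46 with the antibodies. Hoxc6 had 17.8, 31.2 and 50.2 CPM untreated, 4.73, 5.04 and 7.49 with erlotinib and 3.21, 3.36 and 3.8 with the antibodies. Hoxa7 had 24.1, 28.5 and 36.9 CPM untreated and 3.83, 3.98 and 4.88 with the antibodies. For Hoxa3 the antibody tumours lay below all other T12 tumours, while the erlotinib and untreated ones overlapped: 44.5, 49 and 51.5 CPM untreated, 42.3, 42.7 and 57.4 with erlotinib, and 12.7, 12.7 and 13.6 with the antibodies. Hoxd8 had 3.41, 4.05 and 5.03 CPM untreated and 3.94, 4.88 and 6.92 with the antibodies, and Hoxb4 had 6.62, 9.11 and 10.4 and 5.01, 5.27 and 6.61, so that Hoxd8 overlapped between the arms and Hoxb4 nearly did.

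**Figure D4:**
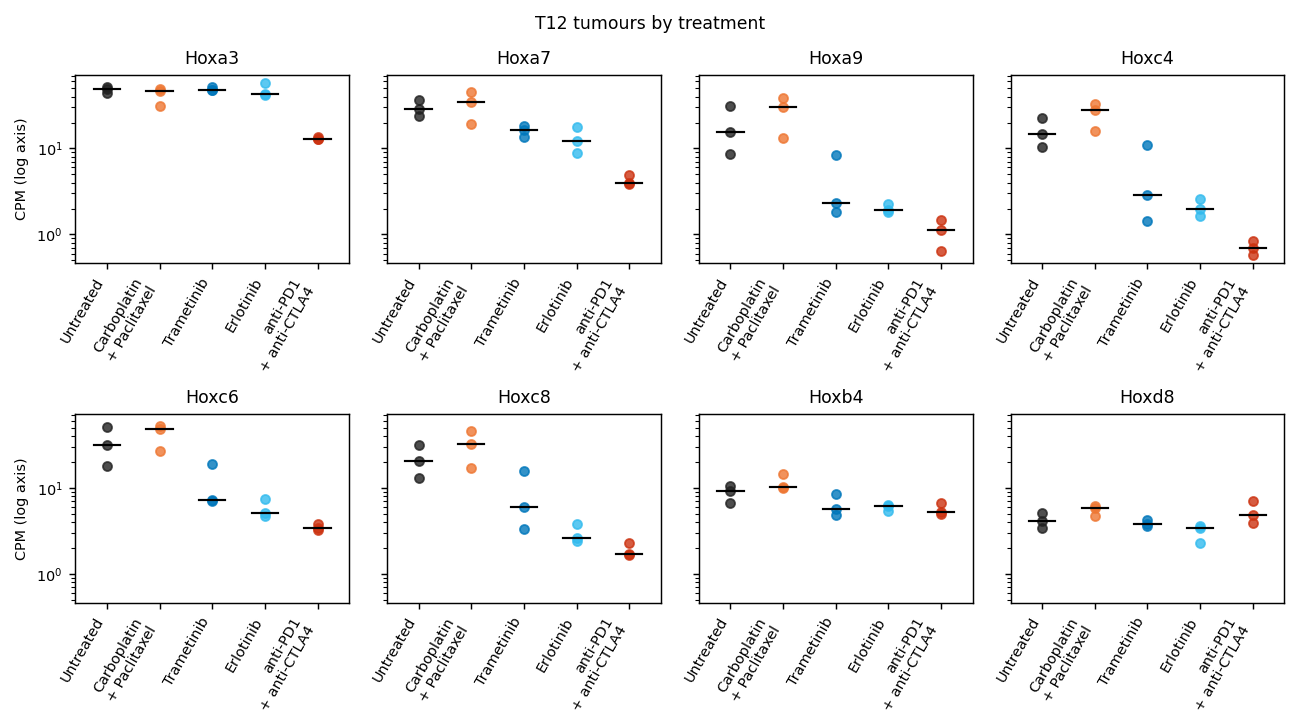
CPM of 8 Hox genes in the 5 arms of T12 (log axis), with a dot for each of the 3 tumours of an arm and a line at their median. Hoxc4, Hoxc6, Hoxc8, Hoxa7 and Hoxa9 are lowest with the antibodies, where Hoxc4 is at 0.582 to 0.845 CPM, while Hoxd8 overlaps between the antibody and untreated tumours.

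Within T12, 19 of 29 members were lower with the antibodies (65.5%, against 30.6% of all genes and 17.4% called lower) and 0 higher. They were 9 members of cluster A, 3 of cluster B, 5 of cluster C and 2 of cluster D. The smallest p-values were those of Hoxa3 (log2 fold change -2.02, SE 0.11, adjusted p = 0.000584), Hoxa7 (-2.94, SE 0.20, adjusted p = 0.000882), Hoxc4 (-4.61, SE 0.34, adjusted p = 0.000948), Hoxa4 (-1.82, SE 0.16, adjusted p = 0.00131), Hoxc8 (-3.64, SE 0.34, adjusted p = 0.00133) and Hoxa11. With erlotinib 4 of 28 were lower (14.3%, against 0.381% of all genes and 0.375% called lower): Hoxc4 (-2.96, SE 0.33, adjusted p = 0.0415), Hoxc8 (-2.90, SE 0.36, adjusted p = 0.0435), Hoxb2 (-2.23, SE 0.29, adjusted p = 0.0453) and Hoxa11. That count was 14 with DESeq2 (3.28% of all genes) and 0 when any replicate number was left out (0% of all genes). With trametinib edgeR called 0 of 29 (0.378% of all genes), with 13 at an unadjusted p under 0.05 and 7 called by DESeq2. With carboplatin plus paclitaxel edgeR called 0 of 30 (0% of all genes), with 3 at an unadjusted p under 0.05 and 0 called by DESeq2. The library numbers of the T12 antibody tumours lie at least 745 above those of the other 12 tumours, so treatment and library number range cannot be told apart for the antibodies. Summed epithelial markers were 906 CPM (854 to 929) with the antibodies against 380 (197 to 668) untreated, but only 1 of 6 tested was called higher. Of 6 keratinocyte markers tested, 5 were higher (70.1 CPM, 8.29 to 994, against 4.25, 2.92 to 5.1). Endothelial markers had 3 of 8 higher, basal markers 3 of 7 higher and 1 lower, and macrophage markers 2 of 8 higher and 1 lower. T and NK cell markers had 1 of 9 higher, and fibroblast and muscle markers 1 of 10 lower each. Summed fibroblast markers were 8690 CPM (8580 to 10100) with the antibodies, 8400 (7680 to 9810) untreated and 4750 (4080 to 4980) with erlotinib. The part of these cell types in the T12 result was not tested.

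In 2153, trametinib went with higher Hox levels. Within this model 19 members were higher and 2 lower of 27 tested (77.8%, against 58.2% of all genes). Hoxc8 had 4.24, 5.05 and 5.11 CPM against 0.55, 0.825 and 1.17 untreated (log2 fold change 2.54, SE 0.31, adjusted p = 0.000663). Hoxc10 had 6.11, 6.39 and 6.49 CPM against 0.407, 1.21 and 1.8 (2.51, SE 0.49, adjusted p = 0.00446), and Hoxc6 had 6.18, 8.42 and 8.47 against 0.909, 1.62 and 2.46 (2.24, SE 0.38, adjusted p = 0.00243). For these 3 genes no treated tumour overlapped with an untreated one. Hoxd8 had 7.3, 8.08 and 8.37 CPM against 2.07, 3.76 and 3.94 (1.32, SE 0.27, adjusted p = 0.00532). Hoxa6, of cluster A, moved the other way and was called lower (-1.14). Stromal markers moved with these members: summed fibroblast markers were 12200 CPM (11600 to 12300) against 2470 (1240 to 3290), and all 7 adipocyte markers were higher (377 CPM, 146 to 509, against 27.5, 5.39 to 33.2). Of the epithelial markers 8 of 10 were lower and 1 higher (3410 CPM, 3300 to 3460, against 4540, 4350 to 5030), and 5 of 7 basal, 5 of 9 T and NK cell, 4 of 8 macrophage and 4 of 5 tested keratinocyte markers were higher. Their part in the result was not tested. The library numbers of the 2 arms lay at least 454 apart, and leaving out replicate 1 left 8 members called (40.9% of all genes). The erlotinib tumours of 2153 had library numbers directly below those of the trametinib tumours. They had 0.317 CPM of Hoxc8 (0.272 to 0.393), 0.59 of Hoxc10 (0.428 to 0.705) and 0.669 of Hoxc6 (0.564 to 0.855). For these 3 genes every erlotinib tumour lay below every trametinib tumour. Erlotinib and trametinib were not tested against each other within 2153.

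In p53RB-426, the antibodies went with lower Hox levels. Within this model 18 of 28 members were lower and 0 higher (64.3%, against 33.6% of all genes and 16.1% called lower). Hoxb2 had 7.33, 7.77 and 9.36 CPM against 13.9, 14.4 and 14.8 untreated (log2 fold change -0.83, SE 0.12, adjusted p = 0.00206), Hoxb8 had 1.43, 1.61 and 1.76 against 3.49, 3.72 and 4.92 (-1.35, SE 0.21, adjusted p = 0.00215), and Hoxb7 had 16.7, 17.2 and 17.6 against 23, 23.5 and 23.9 (-0.46, SE 0.08, adjusted p = 0.00456). The arms did not overlap for these 3 genes. All 6 members with the smallest p-values were of cluster B, the others being Hoxb3 (-0.78), Hoxb5 (-0.95) and Hoxb6 (-0.71). Fibroblast markers were at 3620 CPM at the median (lowest 3360) against 5800 (5580 to 6190), and all 10 muscle markers were lower (5.49 CPM, 4.26 to 10.7, against 187, 123 to 209), and their part was not tested. Library numbers lay at least 869 apart, and leaving out a replicate number left from 3 (without replicate 2) to 19 members called, with 8.91% to 37.7% of all genes.

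The model 2336 had no untreated tumours, and its 3 arms are described without a test. The 3 tumours treated with carboplatin plus paclitaxel (library numbers at least 1552 above the others) had another Hox profile than the 6 treated with erlotinib or trametinib. Hoxb13 had 0.0165, 0.0864 and 0.143 CPM with carboplatin plus paclitaxel, 8.94, 9.13 and 10.8 with erlotinib and 10, 10.1 and 10.3 with trametinib. Hoxc13 had 0.379, 0.537 and 1.32 CPM against 12.7, 13.5 and 16 and 14.5, 16.2 and 19.4. Hoxb4 was the reverse, with 8.1, 8.37 and 9.29 CPM against 0.883, 0.986 and 1.11 with erlotinib and a median of 0.847 (highest 1.03) with trametinib. Hoxb2, Hoxb3 and Hoxd8 went the same way as Hoxb4, with medians of 9.92 against 1.61 and 1.32 CPM for Hoxb2 and of 29.2 against 11.7 and 9.73 CPM for Hoxd8. No tumour overlapped with the other arms for any of these 5 genes with values given. Hoxa13 had medians of 6.58, 6.59 and 11.3 CPM in the 3 arms. Some other members differed less between the arms: Hoxa5 had medians of 12, 14.4 and 13.3 CPM, Hoxa7 5.15, 6.22 and 5.04, and Hoxd10 2.6, 2.52 and 2.04. Hoxd13, on in this model alone, had 14, 15.7 and 18.8 CPM with carboplatin plus paclitaxel, 33.2, 40.2 and 43.4 with erlotinib and 19.5, 24.5 and 28.4 with trametinib, in an order in which the 3 arms do not overlap.

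**Figure D5:**
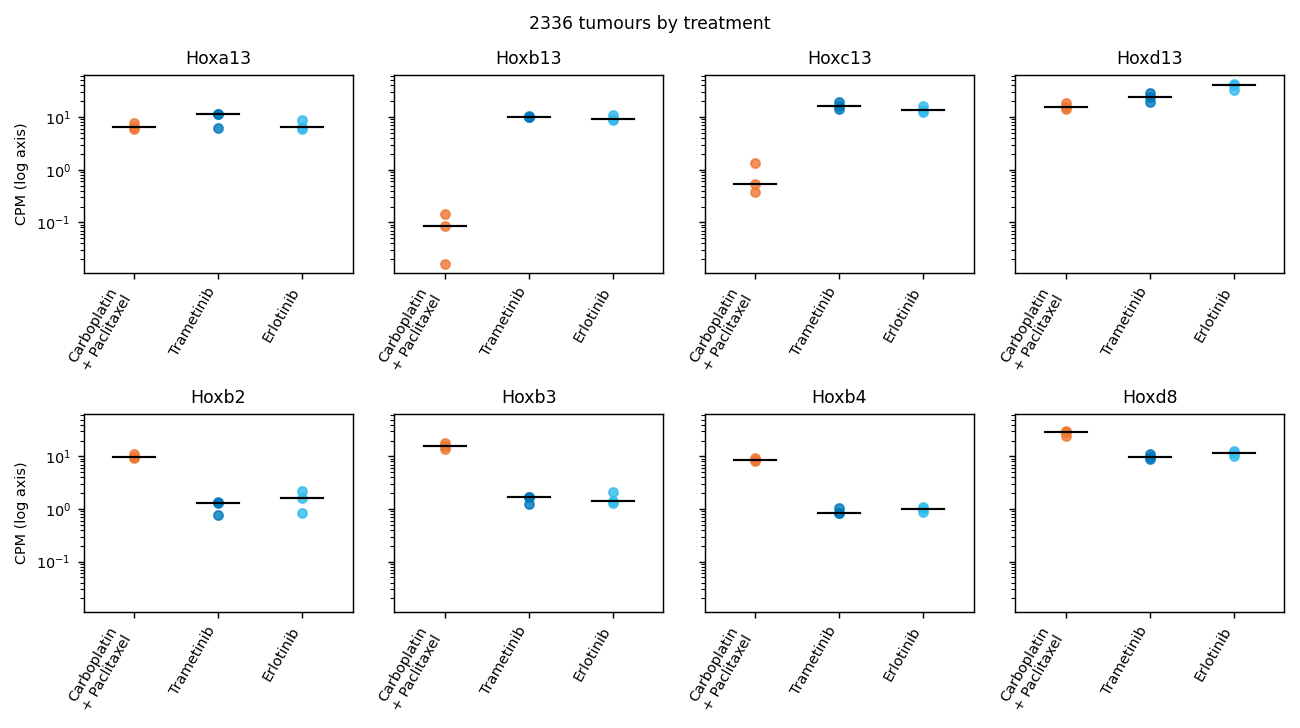
CPM of 8 Hox genes in the 3 arms of 2336 (log axis), with a dot for each of 3 tumours and a line at their median. With carboplatin plus paclitaxel Hoxb13 is at 0.0165 to 0.143 CPM and Hoxb4 at 8.1 to 9.29, while in the other arms Hoxb13 is at 8.94 or more and Hoxb4 at 1.11 or less.

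Over the 39 members, the carboplatin plus paclitaxel tumours of 2336 had Pearson r from 0.641 to 0.766 with the other 2336 tumours, at least 0.93 with each other, and up to 0.82 with a tumour of another model, 2224. The other 6 tumours had at least 0.947 among themselves. Over 19521 genes the range was 0.926 to 0.957 with the other 2336 tumours, at least 0.985 with each other and up to 0.937 with another model, again 2224. Their summed fibroblast markers were 7500 CPM at the median (highest 8390), against 1480 (1050 to 2440) with erlotinib and 2480 (2000 to 3030) with trametinib, and macrophage markers were 836 CPM (774 to 989) against 204 (159 to 350) and 185 (139 to 226). Skeletal muscle markers were 1940 CPM (584 to 3650) against 42.8 (36.8 to 75.5) and 97.7 (88.8 to 201), endothelial markers 513 against 186 and 108, and epithelial markers 774 against 1310 and 1740. Treatment and library number range cannot be told apart here, and the part of the marker cell types was not tested.

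Models that share a name stem were compared over the arms they share, with the treatment as a factor. T11-APOBEC and T11 (12 and 13 tumours) had close Hox profiles. Of 29 members 6 were higher and 2 lower in T11-APOBEC (27.6%, against 19.7% of all genes), and the median absolute log2 fold change was 0.13 over the members and 0.15 over all genes. Hoxd3 had 3.65 CPM (0.827 to 5.34) against 1.65 (0.273 to 4.12; log2 fold change 1.17, SE 0.24, adjusted p = 0.00126), and Hoxa11 had 1.43 (0.668 to 2.35) against 0.416 (0.14 to 2.92; 1.2, SE 0.36, adjusted p = 0.0188). Both ranges overlapped, and Hoxa11os, on the other strand of Hoxa11, was higher by 1.57 (adjusted p = 0.00127). Hoxa4 (0.36, SE 0.09, adjusted p = 0.00402), Hoxd4 (0.30, SE 0.08, adjusted p = 0.0116) and Hoxa2 (0.28, SE 0.08, adjusted p = 0.0172) were higher by less. Hoxc8 was lower (-0.24, SE 0.07, adjusted p = 0.0222). In untreated tumours only, edgeR called 0 members and 0.0375% of all genes. Over the 4 arms, all 9 T and NK cell markers were higher in T11-APOBEC (summed 38.2 CPM, 22.7 to 127, against 9.93, 3.91 to 45), as were 5 of 8 macrophage markers, while 4 of 10 fibroblast markers were lower and 1 higher. Their part was not tested.

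KPB25L-UV and KPB25L (12 tumours each) differed in 0 of 27 members by edgeR, with 0 at an unadjusted p under 0.05 and 0 by DESeq2, and 0.00619% of all genes were called. Of the KPB25L-UV tumours, 3 carry the library name stem of KPB25L. KPB1-B and KPB1-A (18 and 15 tumours, 5 arms) differed in 12 of 30 members, 4 higher and 8 lower in KPB1-B (40%, against 68.1% of all genes). Hoxa5 had 4.18 CPM (3.16 to 13.5) in KPB1-B against 17.2 (12.2 to 38.1) in KPB1-A (-2.02, SE 0.18, adjusted p = 2.35e-11), and Hoxb13 had 8.32 (1.87 to 19.4) against 29.2 (8.93 to 39.2; -1.71, SE 0.20, adjusted p = 4.29e-09). Hoxc13 was found in KPB1-B, with 5.15 CPM (0 to 9.96) against 0.0372 (0 to 0.992; adjusted p = 2.24e-09). All 3 ranges overlapped at their ends. Hoxb9 (-1.09, SE 0.16, adjusted p = 6.61e-07) and Hoxa6 (-1.78, SE 0.28, adjusted p = 1.73e-06) were lower in KPB1-B, while Hoxa7 did not pass (-0.25, adjusted p = 0.257). In untreated tumours only, 7 members and 36.4% of all genes were called.

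The 3 p53RB models were compared in pairs that share tumours, over 15 tumours of p53RB-426, 15 of p53RB-624 and 18 of p53RB-626. They had cluster B in common, with members on from Hoxb2 to Hoxb8 in all 3, and differed in clusters A and C. Cluster A was on up to Hoxa11 in p53RB-426, with 9 members on, and had 2 and 4 members on in p53RB-624 and p53RB-626. Hoxa9 had 7.25 CPM (4.72 to 13.2) in p53RB-426, 0.53 (0.204 to 1.02) in p53RB-624 and 0.285 (0.0674 to 0.608) in p53RB-626, so that p53RB-426 overlapped with neither. Hoxa11 had 5.19 CPM (2.61 to 7.16) in p53RB-426, and no tumour of the other 2 exceeded 0.131 CPM. Cluster C was on from Hoxc4 to Hoxc9 in p53RB-626, where Hoxc6 had 19.1 CPM (9.65 to 32), against 0.964 (0.283 to 2.3) in p53RB-426, without overlap.

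Between p53RB-624 and p53RB-426, 8 members were higher and 12 lower of 28 (71.4%, against 74.3% of all genes). The smallest p-values were those of Hoxa11 (adjusted p = 4.06e-16), Hoxa9 (log2 fold change -3.87, SE 0.21, adjusted p = 9.39e-16), Hoxa2 (-3.06, SE 0.20, adjusted p = 4.39e-14), Hoxa7 (-2.71, SE 0.17, adjusted p = 4.47e-14), Hoxa4 (-2.54) and Hoxa5 (-2.27). Hoxb7 was lower by less (-0.52, SE 0.07, adjusted p = 7.04e-08), Hoxd8 was higher (1.2, SE 0.14, adjusted p = 1.38e-08), and Hoxc6 did not pass (0.24, adjusted p = 0.34). Between p53RB-626 and p53RB-426, 17 were higher and 9 lower of 27 (96.3%, against 77%). Hoxa11 (adjusted p = 8.08e-24), Hoxa9 (-4.91, SE 0.22, adjusted p = 5.16e-19), Hoxa7 (-3.04, SE 0.14, adjusted p = 2.22e-18) and Hoxa10 (-4.68, SE 0.22, adjusted p = 3.29e-18) were lower. Hoxc4 (4.69, SE 0.24, adjusted p = 1.74e-17) and Hoxc6 (4.25, SE 0.22, adjusted p = 3.47e-17) were higher, and Hoxb7 differed little (0.20, SE 0.06, adjusted p = 0.00201). Between p53RB-626 and p53RB-624, 17 were higher and 5 lower of 26 (84.6%, against 73.4%). Hoxc4 (4.23, SE 0.18, adjusted p = 2.66e-19), Hoxa3 (2.95, SE 0.15, adjusted p = 1.78e-17) and Hoxc6 (3.99, SE 0.21, adjusted p = 4.46e-17) led, and Hoxd8 had 0.01 (SE 0.15, adjusted p = 0.974). The median absolute log2 fold change in these 3 comparisons was 0.6, 1.2 and 1 over the members, and 0.45, 0.49 and 0.42 over all genes. Summed markers also differed: fibroblast markers were 12800 CPM (7290 to 19300) in p53RB-624, 8420 (7120 to 13800) in p53RB-626 and 3660 (2470 to 8750) in p53RB-426, and epithelial markers 293 (209 to 496), 143 (49.2 to 215) and 1410 (727 to 1680). Their part in the Hox differences was not tested.

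Genes of the Hox pathway were followed as lists, whose counts stand beside 36.9% of all genes called with trametinib, 5.74% with erlotinib, 24.2% with carboplatin plus paclitaxel and 10.8% with the antibodies. Among 9 cofactor genes of the Pbx, Meis and Pknox families tested, trametinib went with 2 higher and 1 lower, with Pbx3 at -0.24 (SE 0.05, adjusted p = 9.41e-05) and Meis2 at 0.33 (SE 0.13, adjusted p = 0.0346), and a median of 0.0074. Erlotinib went with 0 called, carboplatin plus paclitaxel with 1 higher and 1 lower (Meis3 and Pbx3), and the antibodies with 1 lower (Pknox2). Pbx2, Pbx3, Meis3 and Pknox1 were on in all 24 models. Meis2 was on in 23 models, Pknox2 in 20 and Pbx4 in 2. Of 21 Polycomb and Trithorax genes, all on in 24 models, 2 were higher and 9 lower with trametinib, with Ezh2, the methyltransferase of Polycomb complex 2, at -0.36 (adjusted p = 6.24e-08) and Cbx2 at -0.35 (adjusted p = 1.25e-05). The counts were 1 higher and 0 lower with erlotinib, 1 and 8 with carboplatin plus paclitaxel, and 1 and 3 with the antibodies. Ezh2 had model medians from 17.8 CPM in 2250 to 196 in KPB1-A. Of 11 genes of retinoic acid signalling and the Cdx family tested, 6 were higher and 1 lower with trametinib, led by Cyp26a1, a retinoic acid hydroxylase (1.41, SE 0.21, adjusted p = 1.23e-07), and Rara (0.42, adjusted p = 3.68e-07). Erlotinib went with 3 higher, carboplatin plus paclitaxel with 1 and the antibodies with 0.

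Noncoding genes inside the clusters were mostly low. Of 5 tested with trametinib, Hoxd3os1 (0.50, adjusted p = 0.00564) and Hoxaas2 (0.30, adjusted p = 0.0477) were higher, and Hoxd3os1 was also higher with carboplatin plus paclitaxel (0.51, adjusted p = 0.00386). Hotair and Hottip were on in 0 models, Hotairm1, of cluster A, in 18, and Hoxa11os in 4, with 14.9 CPM in K14-TRT, the model in which Hoxa11 was highest. Of 9 flanking genes tested with trametinib, 2 were higher and 1 lower. Evx2, next to Hoxd13, was on in 0 models, and Cdx2, a regulator of posterior Hox genes, was on in 2336 alone (1.09 CPM).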

How the data were processed

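Poly(A) RNA from 309 tumours was sequenced by the authors, and per the submitters' processing notes the tools were STAR, SAMtools, Picard and Salmon on mm10. Tool versions are not given in these sources. The authors deposited a table of estimated counts per gene symbol (8.35% of values not whole, rounded here) and a table of normalized signal, which equals the deposited count divided by the 75th percentile of values above 0 and multiplied by 1000. The members, gene lists and comparisons were chosen with earlier results of these data known. Exon lengths and positions came from GENCODE M21 on mm10.

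The title of each tumour gave its model and treatment. The chemotherapy arm of KPB25L-UV (3 tumours) carries the library name stem KPB25L in place of KPB25L-UV, and was left under its title. CPM used TMM factors, with a prior count of 2 on the log2 scale. Tests used edgeR 4.0.16 (filterByExpr, glmQLFit, glmQLFTest) in R 4.3.3, with Benjamini-Hochberg adjustment over all genes tested and 0.05 as the threshold. Alternatives used limma 3.58.1, DESeq2 1.42.0, RLE scaling, no filter, left-out replicate numbers, models or muscle-rich tumours, the library number range, and the untreated tumours that the labels assign to a treatment's set. Named with full statistics were, per comparison, up to 6 called members with the smallest p and the most abundant member per cluster, and for levels the 3 members per cluster with the widest range. Hoxc5, Hoxc10 and the members in the model-by-model accounts beyond that were chosen after their values were seen. Some genes are not reported here. Replicate numbers follow accession order and pair no tumours. The edgeR step was tested on simulated data.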

Additional observations from a re-analysis of the deposited data

Results flagged for a closer look

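In groups of 4 to 10 tumours, a tumour that stood away from the others of its group by Dixon's criterion was found in 6 of 39 tests on 16 members. For a single test chance gives about 1 in 20. The tests share tumours and neighbouring genes, so the count of 6 cannot be set against that rate. In untreated KPB1-B (6 tumours) the highest tumour had 13.5 CPM of Hoxa5 (next 4.51, median 4.08), the highest for Hoxa7 had 57 (next 21.3, median 14.6) and the highest for Hoxa9 had 10 (next 4.34, median 3.74). In untreated p53RB-626 (6 tumours) the highest tumour had 2.43 CPM of Hoxa7 (next 1.54, median 1.38). In untreated T11 (4 tumours) the highest had 105 CPM of Hoxc6 (next 86.8, median 86.2), and in untreated C3-TAG (4 tumours) the highest had 7.06 CPM of Hoxd8 (next 2.05, median 2.01).

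The response to a treatment differed between models, by edgeR's test of the combination, for 21 members with trametinib, 16 with erlotinib, 12 with carboplatin plus paclitaxel (each over 16 models) and 16 with the antibodies (12 models). These were 75%, 59.3%, 42.9% and 59.3% of the members tested, beside 79%, 73.9%, 65.7% and 50% of all genes.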

How the results depend on the processing

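Of 171 alternative values of a count, 112 stayed within 1.5 times of the reported count and 59 did not. Of 892 for single members, 745 kept their direction and call, 141 lost the call, 4 gained it and 2 reversed. Both reversals were Hoxd8 in models with adjacent library numbers, at -0.042 with trametinib (adjusted p = 0.806) and -0.0154 with erlotinib (adjusted p = 0.983). The cause of the changes below was not tested, apart from settings that use fewer tumours.

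Shares of all genes called stand in parentheses. With trametinib 7 members were called (36.9%); the count was 0 with 1 difference per model (8.65%), 2 with the library number range as a factor (33.1%), 3 with untreated tumours of the labelled set (29.3%), 0 in models with adjacent library numbers (23.6%) and 3 to 9 when a replicate number was left out (24.9% to 29.3%). The 1 call with erlotinib (5.74%) became 2 with DESeq2 (8.58%), with the authors' normalized values (15.4%) and without T12 (6.26%). It became 0 without a filter (2.12%), without tumours highest in muscle (3.31%), with 1 difference per model (0%), with the library number range (2.06%), with the labelled set (8.77%), in models with adjacent library numbers (0.133%) and without any replicate number (0 to 0; 0.317% to 1.67%). The 6 with carboplatin plus paclitaxel (24.2%) became 0 with 1 difference per model (0%), 1 with the library number range (4.56%), 2 with the labelled set (9.5%), 0 in models with adjacent numbers (0%) and 1 to 7 without a replicate number (9.91% to 16.2%). The 4 with the antibodies (10.8%) became 0 with 1 difference per model (0%), 0 with the library number range (0.914%), 2 with the labelled set (5.12%), 0 in models with adjacent numbers (0%), 1 without T12 (5.36%) and 0 to 1 without a replicate number (1% to 3.35%). The 2 between trametinib and erlotinib (25.4%) became 4 with DESeq2 (27.8%), 1 without a filter (9.55%), 0 with 1 difference per model (2.35%), 1 without T12 (22.5%) and 0 to 0 without a replicate number (10.1% to 17.5%).

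Between T11-APOBEC and T11 the 8 calls (19.7%) became 5 without a filter (9.09%), 2 without tumours highest in muscle (12.2%), 0 in untreated tumours only (0.0375%) and 2 to 4 without a replicate number (8.56% to 13.5%). Between KPB1-B and KPB1-A the 12 (68.1%) became 7 in untreated tumours only (36.4%). The 12 members with differing responses to carboplatin plus paclitaxel (65.7%) became 7 without tumours highest in muscle (54.4%). Within T12, 0 calls with trametinib (0.378%) became 1 without a filter (0.987%) and 7 with DESeq2 (7.49%), and 4 with erlotinib (0.381%) became 8 without a filter (0.608%), 2 with RLE scaling (0.228%), 14 with DESeq2 (3.28%) and 0 to 0 without a replicate number (0%). Leaving out a replicate number gave 8 to 20 calls in 2153 with trametinib (40.9% to 46.4%) and 3 to 19 in p53RB-426 with the antibodies (8.91% to 37.7%). The median treatment share of variance was 2.44% with treatment entered before model. The p53RB comparisons had counts of 15 to 26 when a replicate number was left out (65.9% to 71.5%). No paired analysis was possible because replicate numbers follow accession order and the labels pair no tumours.

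Members with medians near 1 CPM change their on state with the limit, and low members such as Hoxd10 rest on few counts in erlotinib and trametinib libraries, which were the shallowest.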
